A study of Rattus norvegicus with 4 samples.

Results

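This account gives the transcripts of sodium-calcium exchangers and plasma membrane calcium pumps in rat oligodendrocyte precursor cells (OPCs) with and without extra miR-125a-3p. These proteins, all but the mitochondrial exchanger Slc8b1, remove calcium from the cytosol. The members are 10 genes: the sodium-calcium exchangers Slc8a1, Slc8a2 and Slc8a3 (NCX1 to NCX3), the mitochondrial exchanger Slc8b1, the potassium-dependent exchangers Slc24a2 and Slc24a3, and the pumps Atp2b1, Atp2b2, Atp2b3 and Atp2b4 (PMCA1 to PMCA4). They were found through the RefSeq accession of each probe, among 16581 genes that the array's accessions named, and together they had 16 probes. The OPCs came from the cortex of rats on postnatal day 2, and bFGF and PDGF were present during 3 days of growth. Lipofectamine RNAiMax then delivered 50 nM of either a miR-125a-3p mimic or a negative control RNA, and RNA was isolated after 48 h. Each sample gave 100 ng of RNA for Cy3 labelling and 1 single-colour Agilent array, with 2 samples per group, called miR-125a-3p and miR-neg here. The labels name the cells OPCs and, in another field, oligodendrocytes, and they also give 2 days in vitro beside the 3 days of growth, without saying how these relate. The strain and the number of animals are not given in the labels, and nothing says that the 2 samples of a group came from separate cultures, so the p-values measure only the spread between these samples.

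The exchangers other than Slc8b1 use the inward sodium gradient to drive calcium out of the cell and can run in reverse when sodium accumulates inside. The Slc24 exchangers also carry potassium outward with the calcium, the product of Slc8b1 returns calcium from the mitochondrial matrix to the cytosol, and the Atp2b pumps spend ATP and are activated by calmodulin. In the oligodendrocyte lineage NCX3 has been linked to maturation and myelin formation, and Slc8a3 is the target that the study chose to follow up, with these samples in view, so its lower signal here is not independent evidence.

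The mimic carries the 3' arm of the miR-125a hairpin, which is encoded at chr1:67350727-67350748 of the GRCr8 assembly (plus strand). Its mature sequence is shown with the 5' arm of the same hairpin and the 3' arms of both miR-125b hairpins, all from RefSeq, because the seed (bases 2 to 8, in capitals) sets which transcripts a microRNA can pair with.
rno-miR-125a-3p: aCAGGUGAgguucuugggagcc
rno-miR-125a-5p: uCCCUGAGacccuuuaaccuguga
rno-miR-125b-1-3p: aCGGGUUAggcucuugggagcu
rno-miR-125b-2-3p: aCAAGUCAggcucuugggaccu
Of 693 mature rat microRNAs in the table, 1 has the seed of miR-125a-3p, miR-125a-3p itself. The 5' arm shares its own seed with miR-125b-5p and miR-351-5p, so the seed delivered by the mimic differs from that of the better known 5' arm. The transcripts of the members were not searched for matches to the seed, since their sequences were not used here.

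The arrays had 26332 to 28138 probes well above background by the scanner software's flag, and 0 spots were saturated. Levels are log2 processed signals relative to the 75th percentile of the same array, so 0 is that percentile, and they do not rank transcripts measured by different probes. The marker sums below add unlogged levels over probes, so the brightest probes weigh most, and they serve only to compare arrays. All 8 OPC markers examined (Pdgfra and Cspg4 among them) were well above background on all 4 arrays, with a summed level of 355.8 to 377.7 in miR-neg and 358.8 to 377.9 in miR-125a-3p, in multiples of the 75th percentile. All 7 markers of myelinating oligodendrocytes were too, Mbp and Mog among them, and their summed level was 758.2 and 765.9 in miR-neg against 514.6 and 499.6 in miR-125a-3p. All 7 differed by less than 0 (median -0.69), and 1 of them, Aspa, passed in limma. The sum for 8 astrocyte markers (Aqp4 and Aldh1l1 first) was 177.7 and 189.1 against 199.6 and 203.3, most of it from Aldoc, which differed by 0.10. Of the 8, 7 lay above 0 with a median of 0.49. Aldh1l1 rose by 1.89 (adjusted p = 0.0333 in limma) and Aqp4 differed by 1.53 (adjusted p = 0.053). The sum was 2.35 and 2.60 against 2.81 and 3.23 for 8 microglial markers (C1qa and Aif1 first), of which Ptprc was not above background on any array, and Cx3cr1, which differed by -0.06, made up most of it. Of 6 tested, 5 lay above 0 with a median of 1.31. C1qa rose by 1.44 (adjusted p = 0.0373 in limma) and Aif1 differed by 1.56 (adjusted p = 0.0515). For 8 endothelial and fibroblast markers it was 0.381 and 0.422 against 0.597 and 0.736, with Pecam1 and Lum not above background on any array and Col1a1 above on 4. All 4 tested (Col1a1, Col1a2, Col3a1 and Pdgfrb) lay above 0 (median 1.12), Col1a1 at 1.42 (adjusted p = 0.0903 in limma). Col3a1 cleared background on 3 arrays and Pdgfrb on 2. The other 4 were too dim to test and lay below 0: Cldn5 (-2.57), Flt1 (-0.39), Pecam1 (-0.18) and Lum (-0.18). The direction of the tested 4 therefore does not stand for the list. The sum for 8 neuronal markers, Rbfox3 and Snap25 first, was 11.5 and 12.8 against 13.0 and 12.2, with Slc17a6 not above background on any array. Of 7 tested, 5 lay above 0 with a median of 0.07, Snap25 at 0.48 (adjusted p = 0.0973 in limma). The part of these shifts in the results below was not tested, and in RNA from whole cultures fewer cells of a type and less RNA per cell cannot be told apart.

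Of the 10 genes, 8 had a probe that cleared background on 2 or more arrays and entered the comparison of 23155 features in limma. In that fit 0 of the 8 passed an adjusted p of 0.05 (Benjamini-Hochberg over all features), where 0.687% of all features passed. At an unadjusted p under 0.05 there were 3 of the 8 (Atp2b3, Slc8b1 and Slc24a3), against 19.5% of all features. The groups did not overlap in 6 of the 8, against 52.9% of all features. Of these, 4 were higher after the mimic and 2 lower, where 28.7% and 24.1% of all features were. The median difference was 0.09 on the log2 scale over the 8 genes and 0.01 over all features, with 4 genes above 0 and 4 below. With 2 samples on each side, the smallest p of an exact permutation test is 0.333, and limma served for every gene. The remaining genes, Slc8a3 and Atp2b4, were too dim for that fit. They are given from a second limma fit over all 45533 probes without a filter, where 0% of probes passed and 10% had an unadjusted p under 0.05. In that fit 0 of the 16 member probes passed and 4 had an unadjusted p under 0.05.

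**Figure D1:**
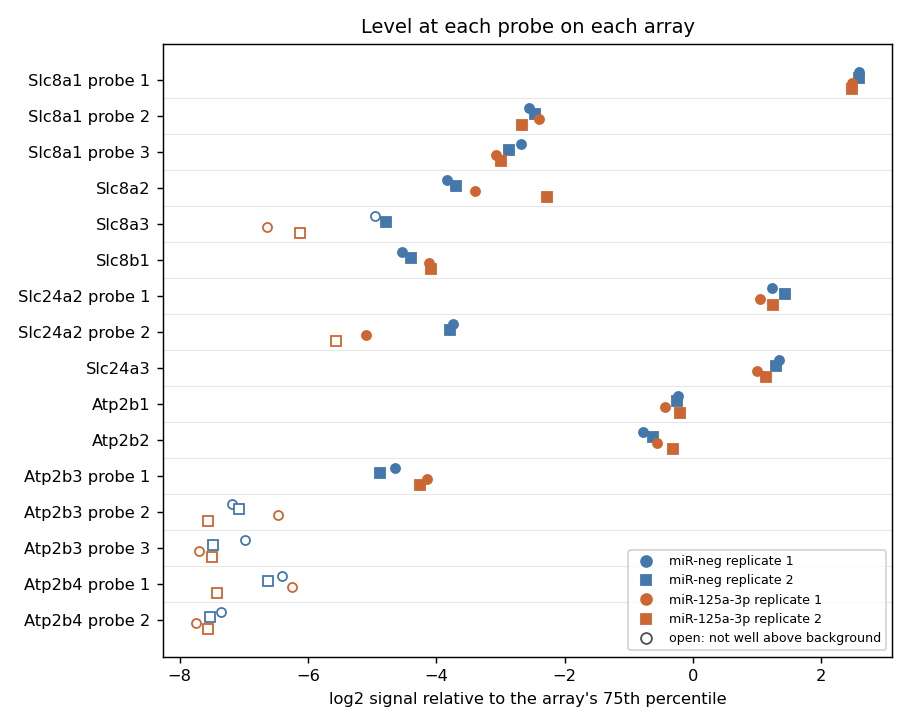
Log2 signal relative to the array's 75th percentile (x axis) at the 16 probes of the 10 genes (y axis, probes of a gene numbered from the brightest), with 1 point per array: blue for miR-neg, orange for miR-125a-3p, circles for replicate 1 and squares for replicate 2, open where the probe was not well above background. The orange points of Slc8a3 and of Slc24a2 probe 2 lie well to the left of the blue ones, and those of most other probes lie close to them.

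Slc8a1 encodes NCX1, the exchanger found in most excitable and glial cells. Its brightest probe read 2.58 and 2.59 in miR-neg and 2.48 and 2.47 after the mimic. The groups did not overlap, but the step between them was small, with a log2 difference of -0.11 (SE 0.07, 95% interval -0.32 to 0.09, n = 2 per group, adjusted p = 0.468 in limma). The second probe read -2.55 and -2.47 in miR-neg and -2.40 and -2.66 in miR-125a-3p, which overlap, and differed by -0.02 (SE 0.12, turning to 0.11 without miR-125a-3p replicate 2). The third read -2.68 and -2.87 against -3.07 and -2.99, with both mimic arrays below both controls, and differed by -0.26 (SE 0.10, limma adjusted p = 0.298 in a fit of every kept probe, and -0.09 with normexp). The 3 probes of Slc8a1 thus spanned 0.24, and 23.3% of 2621 genes with several kept probes spanned at least as much.

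Slc8a2 encodes NCX2, which in the brain is known mainly from neurons. Its probe read -3.83 and -3.70 in miR-neg and -3.40 and -2.27 in miR-125a-3p. Both mimic arrays lay above both controls, yet most of the difference came from replicate 2, whose signal of 149 (scanner error 15.3) compares with 66.3 in replicate 1 and 52.3 on each control array. The log2 difference was 0.93 (SE 0.41, 95% interval -0.19 to 2.04, adjusted p = 0.319 in limma). It was 0.36 without miR-125a-3p replicate 2, 1.5 without miR-125a-3p replicate 1 and 0.45 with normexp background correction. On the array where Slc8a2 was highest, the neuronal markers summed to 12.2, against 11.5 and 12.8 on the control arrays, a sum made mostly of Map2 and Tubb3. On that array Snap25 read -0.73, against -1.25 and -1.26 on the controls, and Stmn2 read -2 against -2.29 and -2.26. Both were about as high on miR-125a-3p replicate 1 (-0.83 and -2.04), where Slc8a2 read -3.40. Of 7 neuronal markers tested, 5 differed by more than 0 and 2 by less, Syt1 (-0.03) and Tubb3 (-0.05). The part of neuronal markers in the Slc8a2 value was not tested.

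Slc8a3 encodes NCX3, and the array carries 1 probe for it. The processed signals were 24 and 24.7 in miR-neg, with scanner errors of 5.40 and 4.59, and 7.01 and 10.3 in miR-125a-3p, with errors of 3.55 and 4.19. Both mimic signals lay below both control signals by more than these errors. The flag for well above background was set on miR-neg replicate 2 alone, although both control signals were above the lowest signal that carried it on their arrays (12.0 and 8.12). The flag thus split 2 nearly equal control signals. On the log2 scale the levels were -4.96 and -4.78 against -6.64 and -6.12, a difference of -1.51 (SE 0.23, 95% interval -2.18 to -0.84, adjusted p = 0.274 in the limma fit over all probes). Of the 2565 probes flagged on exactly 1 array, 11.1% had a fall of about this size or larger. The SD of their differences was 1.14. In that class the gap from replicate 1 to replicate 2 had an SD of 1.52 in miR-neg and 1.68 in miR-125a-3p. Such falls were seen at 0.261% of probes flagged on 0 arrays, 1.79% on 2, 1.01% on 3 and 0.144% on 4. Their share among dim probes with replicates as close as those of Slc8a3 was not tested. With each mimic signal raised to at least the lowest well above background on its array (7.63 and 9.81), the probe was 2.73-fold lower (log2 size 1.45). That is no guaranteed minimum, as 1 control array was itself below background by the flag. The floor moved only the signal of miR-125a-3p replicate 1, from 7.01 to 7.63. It is no detection limit either, since a control signal of 24 went unflagged where the lowest flagged signal was 12.0.

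The SDs between arrays at the Slc8a3 probe were 0.13 in miR-neg and 0.37 in miR-125a-3p on the log2 scale. The difference became -0.28 with normexp, which adds an offset of 50 to signals of this size, and ran from -1.77 to -1.25 when 1 array was left out. The markers of myelinating oligodendrocytes listed above were also lower on the mimic arrays, and the part of that shift in the Slc8a3 signal was not tested.

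By the Euclidean distance between mean-centred log2 levels over the 4 arrays, the 5 genes closest to Slc8a3 among 11668 others were Mylk, Ppfibp2, Cnksr3, Aspa and Cmtm7, at distances of 0.270 to 0.342. No order among them is read from this, since both mimic signals of Slc8a3 were dim, with errors of 3.55 and 4.19 on 7.01 and 10.3. Mylk, myosin light chain kinase, read -3.13 and -3.17 in miR-neg and -4.83 and -4.61 in miR-125a-3p, a difference of -1.57. Aspa, the aspartoacylase that frees acetate for myelin lipids, read 0.67 and 0.51 against -1.07 and -0.86. With 4 arrays in 2 groups, this likeness says little more than that these genes were lower by a like amount.

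**Figure D2:**
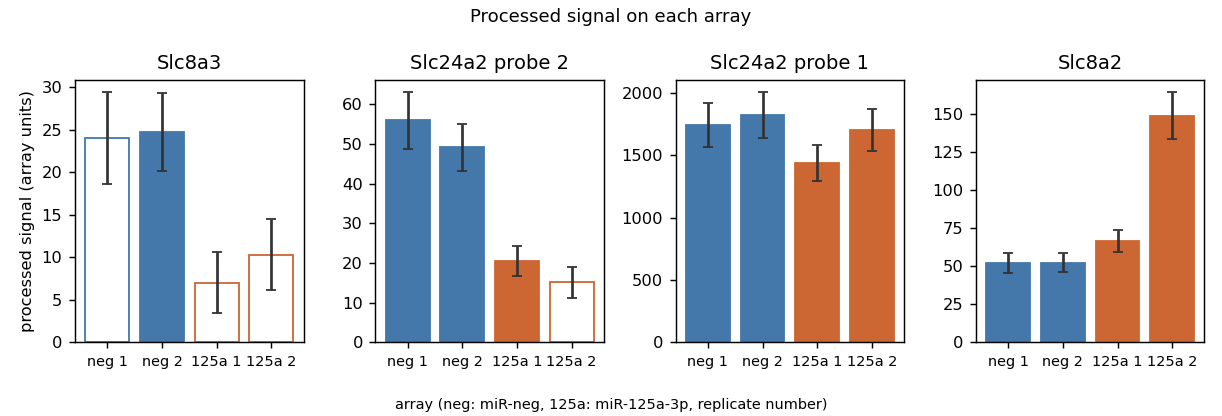
Processed signal in array units (y axis, from 0) on each array (x axis) at the probes of Slc8a3, Slc24a2 and Slc8a2. Bars are single spots, error bars are the scanner software's error estimate for the spot, and white bars were not well above background; the dimmer Slc24a2 probe went from 55.9 and 49.1 to 20.4 and 15.1 while the brighter one read 1743 and 1824 against 1438 and 1702.

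Slc24a2 encodes NCKX2, a potassium-dependent exchanger known from neurons and cone photoreceptors, and its 2 probes did not behave alike. The brighter probe, which stood for the gene, read 1.23 and 1.43 in miR-neg and 1.04 and 1.25 in miR-125a-3p. The groups overlapped, with a difference of -0.18 (SE 0.13, 95% interval -0.53 to 0.16, adjusted p = 0.488 in limma). The dimmer probe read -3.74 and -3.79 in miR-neg and -5.10 and -5.57 after the mimic, with replicate 2 of the mimic group not well above background. Both mimic arrays lay far below both controls at this probe, by more than the scanner errors of 7.10 and 6.02 on the control signals and 3.77 and 3.98 on the mimic signals.

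In the limma fit of every kept probe the dimmer probe differed by -1.57 (SE 0.18, 95% interval -2.06 to -1.08), with an adjusted p of 0.0615 that did not pass. It passed with median centring (adjusted p = 0.0365), with a variance trend (0.0099) and with normexp (0.0155), where the difference shrank to -0.46, and its adjusted p was between 0.151 and 0.24 when 1 array was left out. The differences at the 2 probes of Slc24a2 lay 1.39 apart, and 0.343% of 2621 genes with several kept probes spanned at least as much. Without miR-125a-3p replicate 2, which had the dimmest signal (15.1, error 3.98), the dimmer probe differed by -1.34 and the brighter by -0.29. The gap was smaller with normexp, which gave -0.46 and -0.16. The mean of both probes differed by -0.88 (adjusted p = 0.0557 in limma), so the value for the gene depends on which probe is read. Both probes carry the same RefSeq accession, and their positions in the transcript were not used here.

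Slc24a3 encodes NCKX3, a related exchanger expressed in brain and smooth muscle. Its probe read 1.34 and 1.29 in miR-neg and 1.00 and 1.13 in miR-125a-3p, and the groups did not overlap. The difference was -0.25 (SE 0.09, adjusted p = 0.253 in limma), equal to a ratio of 0.844 with a 95% interval of 0.713 to 0.998. Slc8b1 encodes NCLX, the sodium-calcium exchanger of the inner mitochondrial membrane. It read -4.54 and -4.40 in miR-neg and -4.12 and -4.08 in miR-125a-3p, again without overlap but in the other direction. Its difference was 0.37 (SE 0.09, 95% interval 0.12 to 0.61, adjusted p = 0.153 in limma), and it was 0.09 with normexp. Behind it were dim signals of 32.1 on each control array and 40.3 and 42.3 after the mimic, with scanner errors of 5.32, 4.67, 5.08 and 5.55.

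**Figure D3:**
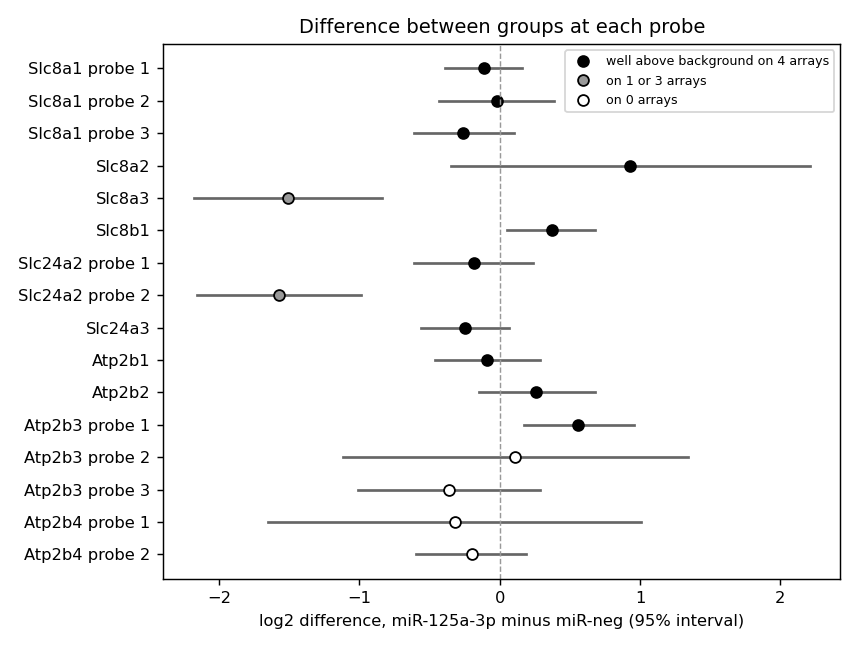
Log2 difference between miR-125a-3p and miR-neg (x axis, with 95% intervals from the limma fit over all probes) at the 16 member probes (y axis). Black points were well above background on 4 arrays, grey points on 1 or 3 and white points on 0; the intervals of Slc8a3 (-2.18 to -0.84) and of the dimmer Slc24a2 probe (-2.16 to -0.99) lie farthest below 0, and no probe passed after adjustment.

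Among the pumps, Atp2b1 encodes PMCA1, the widespread housekeeping form. It read -0.23 and -0.25 in miR-neg and -0.44 and -0.21 in miR-125a-3p, so the groups overlapped, and differed by -0.09 (SE 0.11, 95% interval -0.39 to 0.22, adjusted p = 0.719 in limma). The interval leaves room for a fall to 0.765 of the control level or a gain to 1.16 times it. Atp2b2 encodes PMCA2, a fast pump of neurons and hair cells. It read -0.78 and -0.62 against -0.56 and -0.32, with both mimic arrays above both controls. The difference was 0.26 (SE 0.12, 95% interval -0.08 to 0.61, adjusted p = 0.347 in limma), and it ran from 0.14 to 0.38 over the alternatives tried.

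Atp2b3 encodes PMCA3, another pump known mainly from neurons, and 1 of its 3 probes was above background. That probe read -4.64 and -4.87 in miR-neg and -4.14 and -4.26 in miR-125a-3p, with no overlap. It differed by 0.56 (SE 0.12, 95% interval 0.24 to 0.88), with an adjusted p of 0.125 in limma, the lowest among the 8 genes, and by 0.07 with normexp. The signals behind it were 29.8 and 23.2 against 39.9 and 37.6, with scanner errors of 5.48, 4.32, 5.23 and 5.41. The other 2 probes of Atp2b3 were not well above background on any array, with signals from 3.41 to 7.90, so they give no fold. Atp2b4 encodes PMCA4, and neither of its 2 probes was well above background on any array. The signals were 8.83 and 6.92 in miR-neg and 9.23 and 4.20 in miR-125a-3p at the brighter one, and 4.55 and 3.66 against 3.28 and 3.83 at the dimmer one. Scanner errors were 3.29 to 5.10 at these spots. A change in Atp2b4 was not detectable at this signal.

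The members were set beside 60 genes of related transport and calcium handling, in lists chosen with earlier results of these data known. Of these 54 had a probe and 46 were tested. In limma 0 of the 46 passed, against 0.687% of all features, and 15 had an unadjusted p under 0.05, against 19.5% of all features. Their median difference was 0.07, with 27 above 0 and 19 below. All 5 partners of the pumps, the calmodulin genes and the subunit genes Nptn and Bsg, were tested (median -0.03), and calmodulin 3 (Calm3, 0.35, adjusted p = 0.212) and neuroplastin (Nptn, -0.23, adjusted p = 0.247) had the smallest p-values in limma. Of 13 genes of the sodium-potassium pump, which maintains the gradient that the exchangers use, 12 were tested (median 0.13), 9 of them above 0 and 3 below. Phospholemman (Fxyd1), a small regulator of this pump and of NCX1, read -3.66 and -3.63 in miR-neg and -2.93 and -3.07 in miR-125a-3p, a difference of 0.65 (SE 0.09, adjusted p = 0.0758 in limma). The beta 1 subunit gene Atp1b1 read 2.55 on both controls and 2.95 and 2.97 after the mimic, a difference of 0.41 (SE 0.07, adjusted p = 0.104 in limma).

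Calcium pumps of the endoplasmic reticulum and secretory pathway had 3 of 5 genes tested, with a median of -0.01. The brightly measured Atp2a2 (SERCA2) differed by -0.10 (adjusted p = 0.601 in limma) and the Golgi pump gene Atp2c1 by 0.36 (adjusted p = 0.184). In the mitochondrial uptake list, 6 of 8 genes were tested (median -0.05), with Letm1 at -0.22 and Mcur1 at -0.38 (adjusted p = 0.224 and 0.399 in limma). Of 12 sodium-proton and sodium-bicarbonate transporters, 8 were tested, with a median of 0.02, and the smallest p-values belonged to Slc9a8 (-0.24, adjusted p = 0.214 in limma) and Slc9a9 (0.22, adjusted p = 0.394). Among 14 cytosolic calcium-binding proteins, 12 were tested (median 0.13), and S100a1 (0.51) and the neuronal sensor gene Hpca (0.34) had adjusted p-values of 0.109 and 0.15 in limma. Of the other NCKX genes, Slc24a1 had a probe that was too dim to test, and Slc24a4 and Slc24a5 were not matched to a probe.

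**Figure D4:**
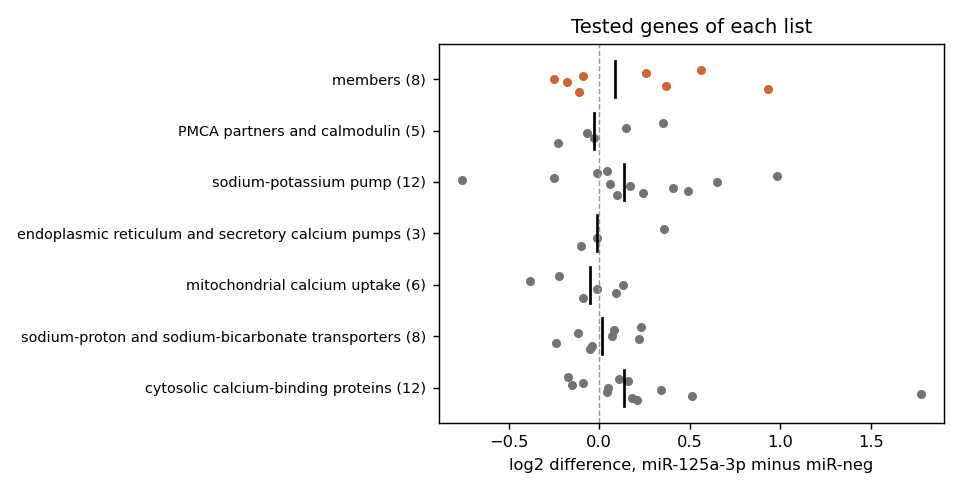
Log2 difference between miR-125a-3p and miR-neg (x axis) for each tested gene, by list (y axis, number of tested genes in brackets), with the 8 tested members in orange and a black line at each list's median. The members run from -0.25 (Slc24a3) to 0.93 (Slc8a2) around a median of 0.09, within the range of the sodium-potassium pump genes.

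**Figure D5:**
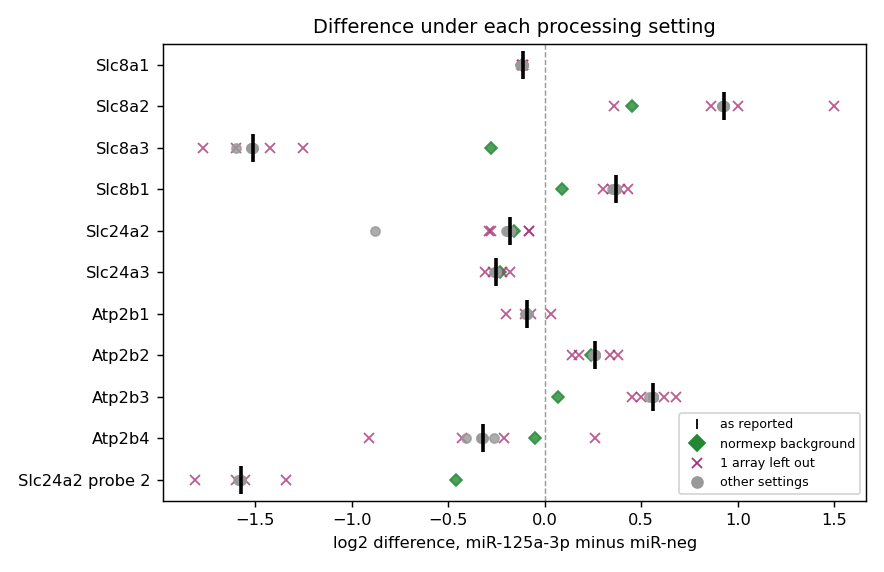
Log2 difference (x axis) of each gene, and of Slc24a2 probe 2, under each processing setting (y axis: gene): the black bar is the value as reported, green diamonds are normexp background correction, purple crosses leave out 1 array and grey circles are the other settings. The dim probes of Slc8a3, Slc8b1 and Atp2b3 move towards 0 with normexp, and the crosses of Slc8a2 spread from 0.36 to 1.5.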

How the data were processed

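The deposited scanner intensities came from Agilent Feature Extraction 10.7.3.1 (submitters' processing notes), which had subtracted background and removed spatial trends, per the file headers. The deposited value table held log2 values that matched these after 1 constant per array. The scanner flags (other columns) were used as deposited. Outlier and control spots were dropped, log2 values averaged per probe, and the 75th percentile of an array taken off its values. Of 45598 probes, 65 had no usable spot on some array, and 27250 cleared background on 2 or more arrays. Symbols came from RefSeq accessions in a GRCr8 gene table, and 46.3% of probes received one. The probe with the highest mean stood for its gene. The comparison used limma 3.58.1 (two-sided, lmFit then eBayes; R 4.3.3), tested on simulated data first. The members, lists and tests were chosen with earlier results of these data known. The naming rule took all members with every probe, list genes past the threshold and up to 2 others per list by smallest p, the 5 genes closest to Slc8a3, and the first 2 markers of each cell type. Other genes were named after their values were seen, and 1 marker gene is not reported here. Alternatives were quantile normalization, median centring, the deposited table, other filters, the mean of probes or every probe, a variance trend, the replicate block, each array left out, and normexp on median spot signals, chosen after seeing the data. Only 4 arrays limit the precision.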

Additional observations from a re-analysis of the deposited data

How the results depend on the processing

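No member passed an adjusted p of 0.05 in limma in any alternative for the genes as reported, with 1 to 4 of them at an unadjusted p under 0.05, while the dimmer Slc24a2 probe passed in 3. The direction of each gene held in every alternative except for Atp2b1, from -0.20 to 0.03 with 1 array left out (positive without miR-125a-3p replicate 1), and for Atp2b4, from -0.91 to 0.26 (positive without miR-125a-3p replicate 2). The count of 159 features (88 higher, 71 lower) was 83 with quantile normalization (37 and 46), 613 when only probes detected on 4 of 4 arrays were kept, 2048 with a variance trend, 1601 with normexp and 984 at a threshold of 0.1. It was 0 without a filter and 0 with 1 array left out (a range of 0 to 0), a fit that gives the lone array the spread of the other group, with 3956 and 2748 to 4116 features at an unadjusted p under 0.05. With the replicate block it was 0 as well, with 3968 such features in limma, and 0 members passed. Same-numbered arrays had deviations correlated at 0.0505, so the numbers were not taken to pair the samples. The 4 arrays shared 1 slide and 1 scan, and position along 1 axis of that slide followed the groups, so those effects cannot be told apart. What caused these shifts was not tested. Normexp on mean spot signals was not run, since the scanner columns used here hold medians. Dim signals limit what can be said of Slc8a3, Slc8b1, Atp2b3 and Atp2b4.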

Other observations

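Among the 46 tested genes of related transport and calcium handling, 3 with the largest differences were chosen after their values were seen, and none passed in limma. S100a6, a small calcium-binding protein of astrocytes and fibroblasts, read -5.45 and -4.73 in miR-neg and -3.84 and -2.79 in miR-125a-3p, a difference of 1.78 (SE 0.45, adjusted p = 0.166). On 1 of the 4 arrays it was not well above background. Fxyd5, a regulator of the sodium-potassium pump, read -4.84 and -4.99 in miR-neg and -4.37 and -3.49 in miR-125a-3p, a difference of 0.98 (SE 0.32, adjusted p = 0.223 in limma). Fxyd2, the gamma subunit gene of the same pump, read -4.37 and -3.82 against -4.94 and -4.76, a difference of -0.76 (SE 0.22, adjusted p = 0.193 in limma). For S100a6 and Fxyd5, as for Slc8a2, the higher mimic array was replicate 2. The markers Aldh1l1 (1.89, astrocytes) and Col1a1 (1.42, fibroblasts) were also higher on the mimic arrays, the largest rises of their lists. The 8 astrocyte markers had a median of 0.49, with Aldoc at 0.10, Slc1a2 at 0.05 and Fgfr3 at -0.14. Cldn5, Flt1, Pecam1 and Lum of the endothelial and fibroblast list lay below 0 but were too dim to test. The part of such markers in the values of S100a6, Fxyd5 and Fxyd2 was not tested.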
